A study of Homo sapiens with 9 samples.

Results

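Genes of the cellular response to low oxygen were followed in MDA-MB-231 cells, a human triple-negative breast cancer line. The 10 genes, chosen by role from 60664 listed, are the HIF alpha subunits *HIF1A* and *EPAS1*, the prolyl hydroxylases *EGLN1* and *EGLN3*, and 6 hypoxia targets that lie outside glycolysis (*CA9*, *CA12*, *VEGFA*, *ADM*, *NDRG1* and *BNIP3*). These genes, and the gene lists used further below, were chosen with earlier results of these data known. Counts of them set beside all genes are therefore descriptions. All 10 were found under a single Ensembl identifier each, and all 10 passed the filter on low counts that left 18264 genes to test.

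The RNA came from 9 samples in 3 groups of 3, collected after 6 days. SC 0.77 cP cells carried a scramble control hairpin and were kept in medium of 0.77 cP, SC 8 cP cells carried the same hairpin in medium of 8 cP, and shTRPV4 8 cP cells carried a hairpin against the ion channel gene *TRPV4* in medium of 8 cP. Every group therefore held a stable lentiviral hairpin, the knockdown rested on a single hairpin sequence, and no knockdown cells at 0.77 cP were analysed here, so whether the hairpin acts differently at the lower viscosity could not be tested. The study's methods name methylcellulose, with dextran and PVP as alternatives, as agents that thickened the medium, and which of them was used for the RNA samples is not stated there. The labels do not state that replicates were separate cultures, and p-values then measure the spread between these samples, which may be technical.

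Cells without enough oxygen stabilise the HIF alpha subunits, which pair with ARNT and bind a short DNA core to raise the transcription of their targets. When oxygen is plentiful, prolyl hydroxylases mark the alpha subunits for recognition by VHL and destruction, so control lies mainly at the level of the protein, which was not measured here. *EGLN3*, *CA9*, *ADM*, *NDRG1* and *BNIP3* are widely used transcript markers of this response in tumour cells, and *EGLN1* and *EGLN3* are themselves induced by it.

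Libraries held 64571681 to 103518036 counts. *TRPV4*, the targeted gene, measured 0.462 ± 0.055 CPM (counts scaled to a library of fixed size; SD, n = 3) in SC 0.77 cP, 0.459 ± 0.191 CPM in SC 8 cP and 0.0777 ± 0.0655 CPM in shTRPV4 8 cP, and was lower after knockdown (log2 fold change -2.51, SE 0.49, adjusted p = 0.00219 in edgeR, quasi-likelihood, adjusted by Benjamini-Hochberg over all genes tested), although it is a gene of very few reads in this line. Markers of the line (*VIM*, *CD44*, *CAV1*, *MSN*, *AXL*) summed to between 4652 and 4977 CPM over all 9 samples, although single markers changed: *VIM* was lower in both steps (log2 fold changes -0.17 and -0.28), *AXL* was higher in SC 8 cP than in SC 0.77 cP (0.22) and lower in shTRPV4 8 cP than in SC 8 cP (-0.31), *MSN* was higher in shTRPV4 8 cP than in SC 8 cP (0.27), and *CD44* was higher in shTRPV4 8 cP than in SC 0.77 cP (0.19). Of the 5 genes listed as low or absent, *ESR1*, *PGR* and *CDH1* had at most 12 counts, but *ERBB2* and *EPCAM* were plainly present and gave nearly all of the list's 108 to 115 CPM. A list of 8 markers of leukocytes, endothelium and fibroblasts summed to 11.8 to 14.1 CPM in SC 0.77 cP, 8.89 to 9.66 CPM in SC 8 cP and 7.89 to 8.32 CPM in shTRPV4 8 cP. Most of that came from *COL1A1* and *PECAM1*, both of which were lower in SC 8 cP than in SC 0.77 cP. Of the other markers, *CDH5*, *DCN* and *CD3E* had at most 6 counts in any sample, *CD68* at most 13 and *PTPRC* at most 17. *ACTA2* had 94 to 154 counts. Mitochondrial transcripts took 2.04 to 2.58% of counts in the SC groups and 3.28 to 3.40% in shTRPV4 8 cP. The part of these shifts in the results below was not tested, and in bulk RNA fewer cells of a kind and less RNA per cell cannot be told apart.

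The DNA core that HIF dimers recognise is ACGTG or GCGTG, read on either strand. To show what lies near the starts of the members, windows of 300 bases (250 before and 50 after the annotated start, RefSeq, GRCh38.p14) were searched for both spellings. Windows were found for 8 of the 10 members, all but *VEGFA* and *NDRG1*. The stretches below show the first core upstream of the start in 5 members and the cluster in *BNIP3*, written 5′ to 3′ on the strand of the gene, with the core in capitals (CACGT and CACGC are the cores of the opposite strand).
HIF1A: tggctgagagcgGCGTGggctggggtggg
EPAS1: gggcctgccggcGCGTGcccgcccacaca
CA9: tcgtttccaatgCACGTacagcccgtaca
CA12: gcggatctcaccCACGCctgccagcagct
ADM: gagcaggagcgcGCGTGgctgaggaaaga
BNIP3: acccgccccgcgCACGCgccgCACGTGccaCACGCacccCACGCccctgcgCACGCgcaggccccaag

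These stretches lie at chr14:61695297-61695325 for *HIF1A*, chr2:46297278-46297306 for *EPAS1*, chr9:35673898-35673926 for *CA9*, chr15:63382064-63382092 for *CA12*, chr11:10304960-10304988 for *ADM* and chr10:131982011-131982078 for *BNIP3*, with *CA12* and *BNIP3* on the minus strand. The *CA9* core began 18 bases before the annotated start, the closest of the 6 stretches shown. *BNIP3* held 6 cores in its window, 2 of them overlapping in the palindrome CACGTG, which is the largest number among the 8 windows. *EGLN1* held 1 core in the ACGTG spelling, and *EGLN3* held none in this window. The starts are those of RefSeq, and the GENCODE gene spans given below can begin elsewhere. The windows of *EPAS1* and *EGLN3* lie inside those spans, not at their ends. At least 1 core was present in 7 of the 8 members' windows (87.5%), against 61.7% of the 12108 windows of genes tested and 48.4% of all 35116 windows. The ACGTG spelling was present in 3 of the 8 (37.5%), against 26.2% for genes tested. The median number of cores was 1 in both. With 8 windows these shares are coarse, and they were not tested. The members' windows were also richer in G and C (mean 71.5%, against 64.1% for genes tested), and a match is a description of letters, not of binding.

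Between SC 0.77 cP and SC 8 cP, the first comparison asked how scramble cells differed after 6 days in the more viscous medium. In SC 8 cP, 7 of the 10 members were lower (*EPAS1*, *EGLN3*, *CA9*, *CA12*, *ADM*, *NDRG1* and *BNIP3*) and none was higher, where 9.69% of all genes tested were called lower and 9.57% higher. *HIF1A*, *EGLN1* and *VEGFA* did not pass the threshold of 0.05 on the adjusted p. The samples of the groups did not overlap, with SC 8 cP below, for 8 members, against 19% of all genes. The median log2 fold change of the members was -0.33, beside -0.0065 for all genes tested. Without SC 0.77 cP replicate 1, the number called fell to 4, with *CA9*, *CA12* and *BNIP3* no longer past the threshold.

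The second comparison asked what the *TRPV4* hairpin changed at 8 cP. In shTRPV4 8 cP, 8 members were lower than in SC 8 cP, the same 7 plus *EGLN1*, and none was higher, where 11% of all genes tested were called lower and 9.02% higher. No overlap between the groups was seen for 9 members, against 18.8% of all genes, and the median log2 fold change was -0.50, beside 0.00064 for all genes. Both comparisons share the SC 8 cP samples. From SC 0.77 cP to shTRPV4 8 cP, which differ in medium and hairpin at once, 10 of 10 members were lower (22% of all genes were called lower and 20.4% higher), 10 of 10 did not overlap (26.1% of all genes) and the median was -0.90, beside -0.011 for all genes.

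**Figure D1:**
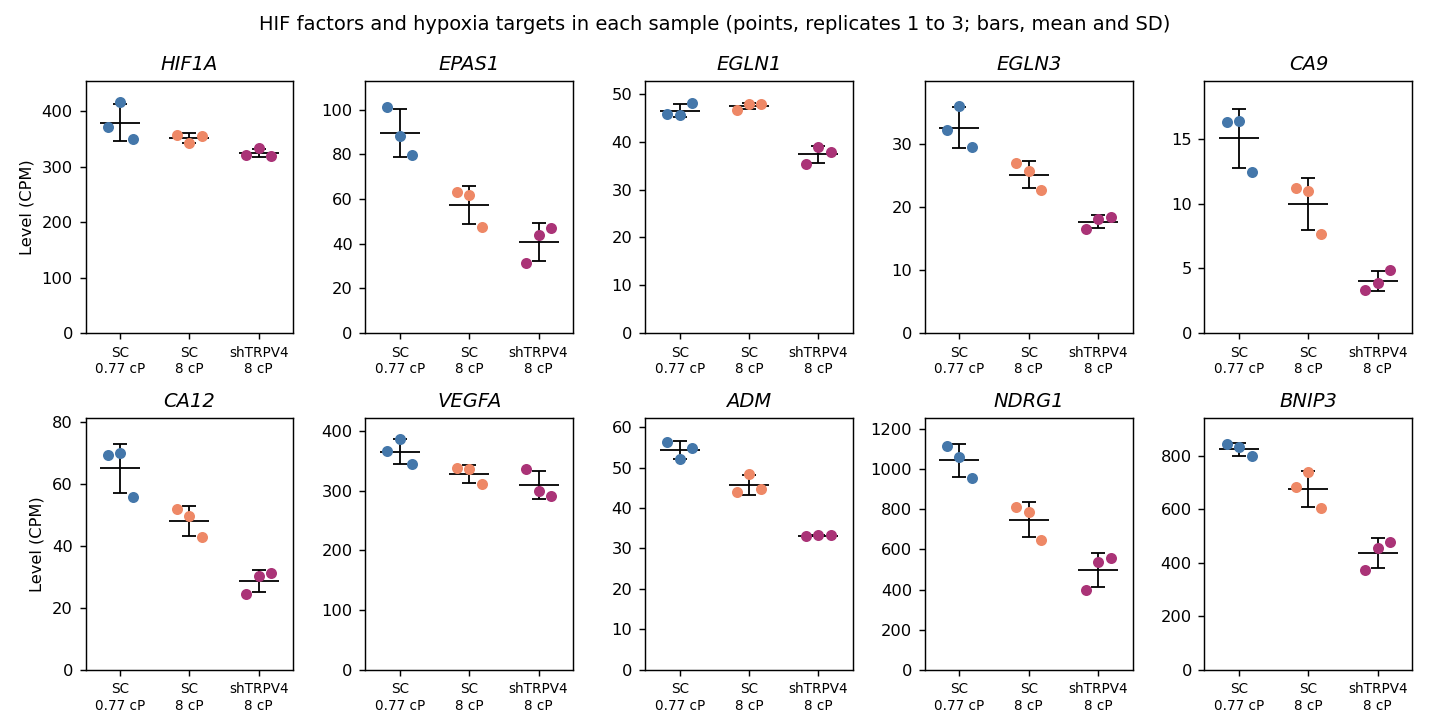
Level of each member in CPM (vertical axes, each from 0) in the 3 groups; points are single samples and bars the mean and SD of 3. For 7 of the 10 genes all SC 0.77 cP points lie above all SC 8 cP points, which lie above all shTRPV4 8 cP points, while *EGLN1* steps down only in shTRPV4 8 cP.

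Of the members, 7 formed a staircase in which no sample of a lower step reached a sample of the step above, a pattern seen in 5.39% of all genes tested. Those same 7 were called lower in both steps, as were 2.36% of all genes. Within groups the members also deviated together. Replicate 3 of SC 0.77 cP was the lowest of its group in 8 of 10 members, replicate 3 of SC 8 cP in 7, and replicate 1 of shTRPV4 8 cP in 8, so the 10 genes are not independent measurements of the samples. Summed, the members took 2727 to 3020 CPM in SC 0.77 cP, 2133 to 2449 CPM in SC 8 cP and 1574 to 1820 CPM in shTRPV4 8 cP, with no overlap between groups.

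*HIF1A* (ENSG00000100644, chr14:61695513-61748259, plus strand, GRCh38) encodes the alpha subunit that drives the acute response to low oxygen in most cells. Its level was 372, 416 and 350 CPM in SC 0.77 cP, 358, 342 and 355 CPM in SC 8 cP, and 322, 333 and 320 CPM in shTRPV4 8 cP. The SC groups overlapped, and all knockdown samples lay below every SC sample by a small margin. The log2 fold change was -0.11 (SE 0.055, 95% interval -0.23 to 0.0088, adjusted p = 0.186) for SC 8 cP against SC 0.77 cP and -0.11 (SE 0.055, 95% interval -0.23 to 0.0036, adjusted p = 0.168) for shTRPV4 8 cP against SC 8 cP. Neither passed, whereas the span from SC 0.77 cP to shTRPV4 8 cP did (-0.22, SE 0.055, adjusted p = 0.00421), where the fitted level decreased by 14.3%. Antisense genes on the opposite strand cover 8.39% of its exon bases, and the strand setting of the counting is not given in the sources used here.

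*EPAS1* (ENSG00000116016, chr2:46293667-46386697, plus strand) encodes HIF-2 alpha, the subunit with a more restricted range of cell types. It measured 101, 88.3 and 79.8 CPM in SC 0.77 cP, 63, 61.6 and 47.6 CPM in SC 8 cP, and 31.2, 44 and 47.2 CPM in shTRPV4 8 cP. The groups kept their order without overlap, although the lowest SC 8 cP sample and the highest knockdown sample were less than 1 CPM apart. It fell by 0.64 on the log2 scale (SE 0.13, adjusted p = 0.00386) from SC 0.77 cP to SC 8 cP, and by 0.49 (SE 0.13, adjusted p = 0.0147) from there to shTRPV4 8 cP. The latter call was lost without SC 8 cP replicate 1 (adjusted p = 0.073) or replicate 2 (adjusted p = 0.06). Over both steps it dropped by 54.5% (log2 fold change -1.14, SE 0.13, adjusted p = 6.83e-06).

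The alpha subunits can be compared per length of exon. The ratio of *EPAS1* to *HIF1A* in RPKM, reads scaled for exon length and library size, was 0.168 ± 0.0215 in SC 0.77 cP, 0.115 ± 0.018 in SC 8 cP and 0.0886 ± 0.0182 in shTRPV4 8 cP (SD, n = 3). Both 8 cP groups lay below SC 0.77 cP in this ratio and overlapped with each other, and no test was run on it. In each sample *HIF1A* was the more abundant transcript per length. By the correlation of log2 CPM over the 9 samples, the genes most like *HIF1A* were *TRIM38* (r = 0.952), *STK17B* (r = 0.946) and *ZFAND5* (r = 0.946), and those most like *EPAS1* were *RAB20* (r = 0.995), *DMAP1* (r = 0.993) and *SREBF1* (r = 0.993), out of 9453 genes with a mean of at least 10 CPM. *NDRG1* followed *EPAS1* almost as closely (r = 0.990), and *HIF1A* and *EPAS1* themselves reached 0.772. These values are descriptions, since the 9 points share their groups and their libraries.

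*EGLN1* (ENSG00000135766, chr1:231363751-231422287, minus strand) encodes PHD2, the main oxygen-sensing hydroxylase of HIF alpha. It stood at 45.8, 45.6 and 48.1 CPM in SC 0.77 cP, 46.7, 47.8 and 47.9 CPM in SC 8 cP, and 35.3, 38.9 and 37.8 CPM in shTRPV4 8 cP. The SC groups covered the same narrow range, and all 3 knockdown samples were clearly lower. For SC 8 cP against SC 0.77 cP the log2 fold change was 0.03 (95% interval -0.073 to 0.13, adjusted p = 0.711). From SC 8 cP to shTRPV4 8 cP it dropped by 21.4% (log2 fold change -0.35, SE 0.049, adjusted p = 0.000148). Against SC 0.77 cP, the knockdown samples were lower by a similar amount (-0.32, SE 0.049, adjusted p = 9.52e-05). An annotated gene on the same strand shares 3004 of its 5381 exon bases and held at most 1 count in any sample, and reads in shared bases may have been left uncounted as ambiguous.

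*EGLN1* was the only member for which the change from SC 8 cP to shTRPV4 8 cP differed from the change from SC 0.77 cP to SC 8 cP by a test of the difference (log2 difference -0.38, SE 0.083, adjusted p = 0.0153), a call made for 5.34% of all genes tested and, with a negative difference, for 2.7%. Because both steps use the SC 8 cP samples, the call leans on that group: it was lost without SC 8 cP replicate 2 (adjusted p = 0.0781) or replicate 3 (adjusted p = 0.0851). For the other 9 members the adjusted p of the difference ran from 0.127 (*CA9*, -0.72, 95% interval -1.28 to -0.17) to 0.986 (*HIF1A*). With no filter on low counts, *CA9*, *CA12* and *BNIP3* also passed.

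*EGLN3* (ENSG00000129521, chr14:33924227-34462774, minus strand) encodes PHD3, the hydroxylase most strongly induced by HIF in many cells. It measured 32.1, 36.0 and 29.5 CPM in SC 0.77 cP, 26.9, 25.7 and 22.7 CPM in SC 8 cP, and 16.5, 18.1 and 18.4 CPM in shTRPV4 8 cP. Unlike its paralogue its groups did not overlap in either step, and it fell by 22.6% (log2 fold change -0.37, SE 0.078, adjusted p = 0.00502) and then dropped by 29.7% (-0.51, SE 0.079, adjusted p = 0.000353). The ratio of *EGLN3* to *EGLN1* in RPKM was 0.512 ± 0.0644 in SC 0.77 cP, 0.387 ± 0.0372 in SC 8 cP and 0.346 ± 0.00842 in shTRPV4 8 cP (SD, n = 3). The last pair of groups overlapped in this ratio. The size of the ratio rests on the *EGLN1* count, from which reads in shared exon bases may be missing.

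*CA9* (ENSG00000107159, chr9:35673928-35681159, plus strand) and *CA12* (ENSG00000074410, chr15:63321378-63381846, minus strand) encode carbonic anhydrases of the cell surface, which hydrate carbon dioxide outside the cell and help tumour cells control pH. *CA9* measured 16.3, 16.4 and 12.4 CPM in SC 0.77 cP, 11.2, 11 and 7.64 CPM in SC 8 cP, and 3.29, 3.86 and 4.85 CPM in shTRPV4 8 cP. *CA12* measured 69.3, 70.0 and 55.9 CPM in SC 0.77 cP, 52.1, 49.7 and 42.8 CPM in SC 8 cP, and 24.6, 30.3 and 31.3 CPM in shTRPV4 8 cP. In both genes replicate 3 was the lowest of each SC group, and no group overlapped with another.

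*CA9* fell by 33.7% from SC 0.77 cP to SC 8 cP (log2 fold change -0.59, SE 0.15, adjusted p = 0.0123). From SC 8 cP to shTRPV4 8 cP it fell by 59.8% (-1.31, SE 0.16, adjusted p = 4.06e-05), the largest change among the members in that comparison. The first of these did not pass without SC 0.77 cP replicate 1 (adjusted p = 0.0752), without SC 0.77 cP replicate 2 (adjusted p = 0.0581) or without SC 8 cP replicate 3 (adjusted p = 0.063). *CA12* fell by 25.8% (-0.43, SE 0.096, adjusted p = 0.00696), a call lost without SC 0.77 cP replicate 1 (adjusted p = 0.0524), and then fell by 40.4% (-0.75, SE 0.098, adjusted p = 8.49e-05). From SC 0.77 cP to shTRPV4 8 cP the log2 fold changes were -1.91 for *CA9* (SE 0.16, adjusted p = 2.88e-07) and -1.18 for *CA12* (SE 0.098, adjusted p = 2.92e-07). Per length the enzymes were level in SC 0.77 cP, with a ratio of *CA9* to *CA12* of 1.01 ± 0.0341, and stood at 0.896 ± 0.1 in SC 8 cP and 0.607 ± 0.0641 in shTRPV4 8 cP.

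The exons of *CA9* share 571 bases, or 35.7%, with *ARHGEF39* on the opposite strand. *ARHGEF39* measured 7.24 ± 0.301 CPM in SC 0.77 cP, 7.29 ± 0.73 CPM in SC 8 cP and 6.85 ± 0.149 CPM in shTRPV4 8 cP, so it did not follow the staircase of *CA9*. If counting ignored strand, reads of the shared stretch could not be assigned to either gene. The level of *CA9* per length, and its ratio to *CA12*, could then be understated.

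**Figure D2:**
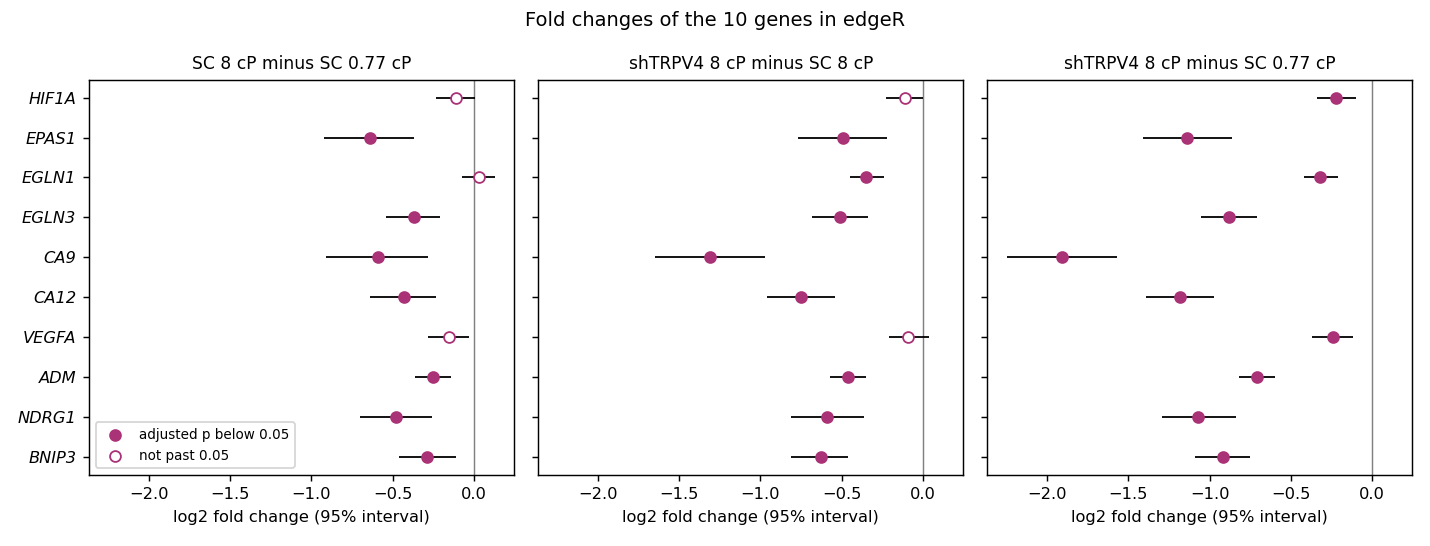
Log2 fold changes of the 10 members (horizontal axis) in the 3 comparisons, with points at the edgeR estimate and lines for the 95% interval; filled points have an adjusted p below 0.05. *CA9* lies farthest to the left in the comparisons that involve shTRPV4 8 cP, at -1.31 and -1.91, and *HIF1A* and *VEGFA* are filled only in the comparison of shTRPV4 8 cP with SC 0.77 cP.

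Of the secreted factors, *ADM* passed the threshold in both steps and *VEGFA* in neither, and the difference between these genes was not tested. *VEGFA* (ENSG00000112715, chr6:43770184-43786487, plus strand), which encodes the main growth factor for blood vessels, measured 366, 386 and 345 CPM in SC 0.77 cP, 339, 336 and 311 CPM in SC 8 cP, and 336, 300 and 292 CPM in shTRPV4 8 cP. The SC groups did not overlap, but shTRPV4 8 cP replicate 1 lay within the SC 8 cP range. Its log2 fold changes of -0.15 (95% interval -0.28 to -0.03, adjusted p = 0.0771) and -0.089 (95% interval -0.21 to 0.036, adjusted p = 0.322) did not pass, and that from SC 0.77 cP to shTRPV4 8 cP did (-0.24, SE 0.058, adjusted p = 0.00344). The first of these is close to the threshold: it passed without SC 0.77 cP replicate 3 (adjusted p = 0.0381), without shTRPV4 8 cP replicate 1 (adjusted p = 0.0282), with no filter on low counts (adjusted p = 0.0242) and in a fit of the 6 SC samples alone (adjusted p = 0.036).

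*ADM* (ENSG00000148926, chr11:10305073-10307397, plus strand) encodes adrenomedullin, a peptide that widens blood vessels. Levels were 56.2, 52.0 and 54.9 CPM in SC 0.77 cP, 44, 48.5 and 44.6 CPM in SC 8 cP, and 33.0, 33.3 and 33.2 CPM in shTRPV4 8 cP. The knockdown samples were the tightest of the 3 groups, and the 3 groups stood apart. *ADM* fell by 16% (log2 fold change -0.25, SE 0.05, adjusted p = 0.00389) and then fell by 27.4% (-0.46, SE 0.051, adjusted p = 1.57e-05). Over both steps its adjusted p was the smallest among the members (-0.71, SE 0.051, adjusted p = 6.41e-08).

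*NDRG1* (ENSG00000104419, chr8:133237175-133302022, minus strand), a stress-responsive gene that is strongly induced by hypoxia, measured 1118, 1060 and 954 CPM in SC 0.77 cP, 809, 788 and 648 CPM in SC 8 cP, and 400, 538 and 557 CPM in shTRPV4 8 cP. Each group lay wholly below the one before it. It fell by 28.3% (log2 fold change -0.48, SE 0.11, adjusted p = 0.00635) from SC 0.77 cP to SC 8 cP and then fell by 33.4% (-0.59, SE 0.11, adjusted p = 0.00114) from SC 8 cP to shTRPV4 8 cP. Its share of the reads of all members went from between 35 and 37% in SC 0.77 cP to between 30.4 and 33.2% in SC 8 cP, and was 25.4 to 30.6% in shTRPV4 8 cP, where the samples overlapped with those of SC 8 cP.

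*BNIP3* (ENSG00000176171, chr10:131967684-131981967, minus strand) encodes a mitochondrial protein that recruits the machinery of mitophagy. Its level was 843, 835 and 798 CPM in SC 0.77 cP, 685, 739 and 606 CPM in SC 8 cP, and 373, 457 and 479 CPM in shTRPV4 8 cP. All groups were separate, with the wider gap below SC 8 cP. It fell by 18% (log2 fold change -0.29, SE 0.081, adjusted p = 0.0231) and then fell by 35.5% (-0.63, SE 0.081, adjusted p = 6.9e-05). The first fall was the least stable of the 7: it did not pass without SC 0.77 cP replicate 1 (adjusted p = 0.102), SC 0.77 cP replicate 2 (0.08), SC 8 cP replicate 1 (0.0599) or SC 8 cP replicate 3 (0.142). *BNIP3* has processed copies elsewhere in the genome, and reads that match several copies make its count uncertain.

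Levels can be set side by side between genes only per length. In SC 0.77 cP, *BNIP3* led with a mean of 204 RPKM, followed by *NDRG1* at 87.0 and *HIF1A* at 73.6, *VEGFA* at 25.3 and *ADM* at 23.4, *EPAS1* at 12.3, *CA9* at 9.41, *CA12* at 9.30, *EGLN1* at 8.64 and *EGLN3* at 4.42. Samples of *NDRG1* and *HIF1A* overlapped in that group, as did those of *VEGFA* and *ADM*, and those of *CA9*, *CA12* and *EGLN1*. In shTRPV4 8 cP *BNIP3* was still highest at 108 RPKM, and *HIF1A* at 63.1 stood above *NDRG1* at 41.5 with no overlap. *EGLN1* at 6.94 RPKM was by then above *CA12* at 4.11 and *CA9* at 2.5, again with no overlap. The length is the union of exons over all annotated transcripts, which can exceed that of the transcripts expressed. It was 14431 bases over 26 transcripts for *VEGFA*, 12002 over 61 for *NDRG1* and 5151 over 12 for *HIF1A*. The order of genes therefore depends on the annotation. It also depends on exon bases shared with other genes, 3004 of 5381 in *EGLN1* and 571 in *CA9*. Reads there may be missing from the count while the bases stay in the length, so both genes may be understated. In CPM, *NDRG1* (498) stood above *HIF1A* (325) in shTRPV4 8 cP.

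Of 14 remaining genes of the HIF machinery 13 were tested, and *HIF3A* had no counts in any sample. In the 3 comparisons 2, 2 and 3 of the 13 were called in either direction, where 3518, 3649 and 7752 of all 18264 genes tested were, so these counts are no result about the list. In SC 8 cP against SC 0.77 cP, *P4HTM*, a membrane-bound prolyl hydroxylase, was lower (log2 fold change -0.27, SE 0.06, adjusted p = 0.00709) and *CUL2*, the scaffold of the VHL ubiquitin ligase, was higher (0.16, SE 0.048, adjusted p = 0.0301), while *ELOB* (-0.13, adjusted p = 0.15) and *CITED2* (-0.12, adjusted p = 0.176) did not pass. In shTRPV4 8 cP against SC 8 cP, *EGLN2*, which encodes PHD1, was higher (0.52, SE 0.14, adjusted p = 0.0148), as was *CITED2*, which competes with HIF for its coactivators (0.18, SE 0.059, adjusted p = 0.048), with *HIF1AN* (-0.086, adjusted p = 0.154) and *P4HTM* (-0.12, adjusted p = 0.178) not past the threshold. *EGLN2* was counted at a low level, at 1.57 ± 0.246 CPM in SC 8 cP and 2.24 ± 0.079 CPM in shTRPV4 8 cP. Exon bases shared with other genes were looked for only in the members and *TRPV4*. Reads of *EGLN2* may have been left uncounted as ambiguous, so its count is no measure of how strongly PHD1 is expressed.

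From SC 0.77 cP to shTRPV4 8 cP, 3 of the 13 passed: *P4HTM* (-0.39, adjusted p = 0.000101) and *ELOB* (-0.18, adjusted p = 0.024) were lower and *EGLN2* (0.37, adjusted p = 0.0412) was higher, while *ARNT*, the partner of both alpha subunits, did not pass (-0.11, adjusted p = 0.0623). The medians of the 13 were -0.035, -0.029 and -0.021 in the 3 comparisons. These small counts were fragile. Of the 2 calls in the first comparison, 1 was left without SC 0.77 cP replicate 1, without SC 0.77 cP replicate 2 or without SC 8 cP replicate 2, and 0 without SC 8 cP replicate 3. Of the 2 in the second comparison, 0 were left without SC 8 cP replicate 2 or replicate 3 and 1 without SC 0.77 cP replicate 1 or 2, SC 8 cP replicate 1, or shTRPV4 8 cP replicate 2 or 3. Of the 3 in the last, 1 was left without SC 0.77 cP replicate 1 or without shTRPV4 8 cP replicate 1 or 2.

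Most of the other hypoxia targets outside glycolysis that passed the test were lower, as the members were. Of 50 on the list 46 were tested (*EPO*, *TF*, *FLT1* and *NOS2* had at most 8 counts in a sample). In SC 8 cP against SC 0.77 cP, 18 were lower and 1 higher, with a median of -0.19. Of all genes tested, 9.69% were called lower and 9.57% higher. The smallest adjusted p belonged to *BHLHE40*, a transcriptional repressor (-1.64, SE 0.11, adjusted p = 4.82e-08), *DDIT4*, an inhibitor of mTORC1 (-0.71, SE 0.084, adjusted p = 6.36e-05), *EDN1*, endothelin-1 (-0.68, SE 0.092, adjusted p = 0.000231) and *PGF*, a relative of *VEGFA* (-0.83, SE 0.13, adjusted p = 0.000957). The number called, 19, became 10 without SC 0.77 cP replicate 1 and 10 without SC 8 cP replicate 3.

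In shTRPV4 8 cP against SC 8 cP, 26 of the 46 were lower and 6 higher, with a median of -0.29. Of all genes tested, 11% were called lower and 9.02% higher. *LOXL2*, an enzyme that crosslinks collagen (-0.83, SE 0.048, adjusted p = 2.08e-08), *AK4*, a mitochondrial adenylate kinase (-0.62, SE 0.052, adjusted p = 9.62e-07), *PGF* (-1.75, SE 0.15, adjusted p = 1.04e-06) and *ERO1A*, an oxidase of the endoplasmic reticulum (-0.52, SE 0.049, adjusted p = 3.78e-06) had the smallest adjusted p, which is not an order by size. Named after their values were seen, those that were higher included *PDGFB* (1.35), *CXCR4* (0.55) and *MET* (0.27), genes of growth signalling and migration that other pathways also control. From SC 0.77 cP to shTRPV4 8 cP, 34 were lower (22% of all genes) and 9 higher (20.4% of all genes), with a median of -0.44. The 9 are near the share of all genes and are no result about the list. The smallest adjusted p over this span belonged to *LOXL2* (-0.90), *BHLHE40* (-2), *DDIT4* (-1.51) and *PGF* (-2.58). Lower in both steps were 14 of the 46, beside 2.36% of all genes.

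The glycolytic targets, which the members exclude, are given for comparison. All 21 were tested. In SC 8 cP against SC 0.77 cP 10 were lower (9.69% of all genes) and none higher (median -0.18), among them *ALDOC* (-0.86, adjusted p = 0.000368), *SLC2A3* (-0.53, adjusted p = 0.000463), *PFKFB3* (-0.29, adjusted p = 0.000579) and *PFKFB4* (-0.46, adjusted p = 0.00316). Without SC 0.77 cP replicate 1 the 10 became 5, without SC 0.77 cP replicate 2 they became 6, and without SC 8 cP replicate 3 they became 4. In shTRPV4 8 cP against SC 8 cP 19 were lower (11% of all genes) and none higher (median -0.32), with the smallest adjusted p for *PFKFB3* (-0.43, adjusted p = 6.19e-06), *ENO1* (-0.45, adjusted p = 2.62e-05), *PFKFB4* (-0.76, adjusted p = 3.23e-05) and *ALDOC* (-1.10, adjusted p = 3.34e-05). From SC 0.77 cP to shTRPV4 8 cP 20 of 21 were lower (22% of all genes; median -0.45), with *PFKFB3* at -0.72, *ALDOC* at -1.95, *PFKFB4* at -1.22 and *SLC2A3* at -0.99. In each of the 3 comparisons the median of the 10 members lay below that of the glycolytic list, a difference that was not tested.

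**Figure D3:**
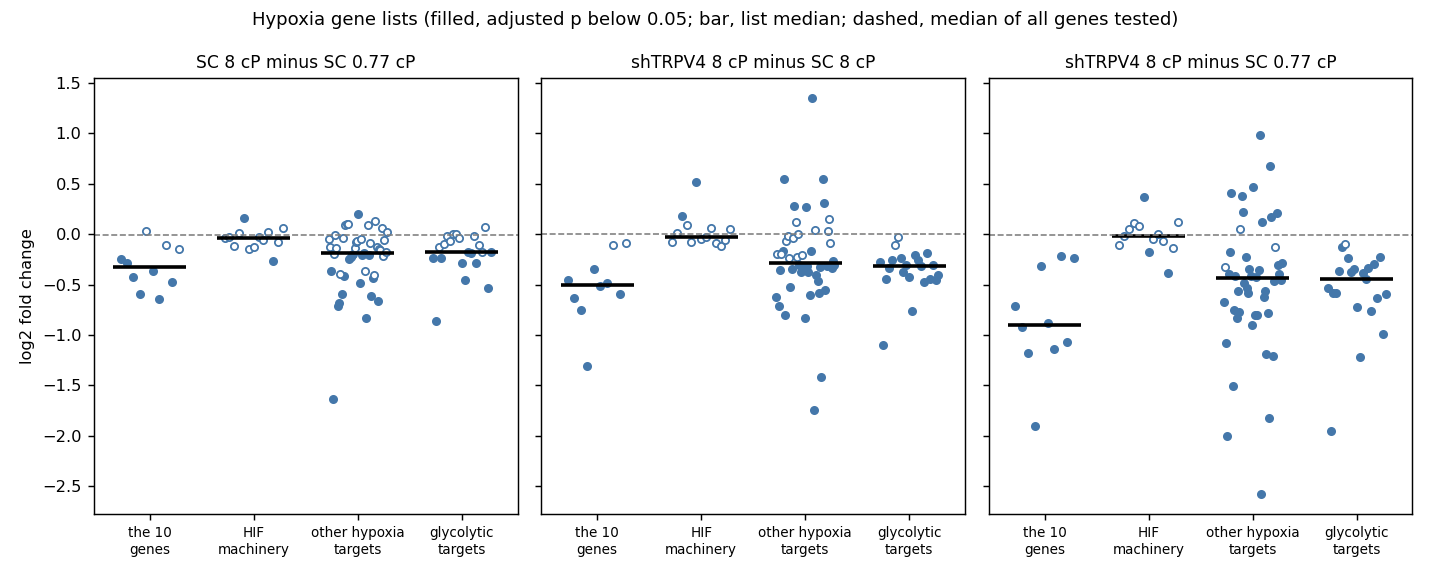
Log2 fold change (vertical axis) of each tested gene in 4 groups of hypoxia genes for the 3 comparisons; filled points have an adjusted p below 0.05, black bars are medians and the dashed line is the median of all genes tested. The members' bars lie at -0.33, -0.50 and -0.90, and the HIF machinery stays near the dashed line, at -0.035, -0.029 and -0.021.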

How the data were processed

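Poly(A) RNA was sequenced with a strand-specific kit as pairs of 100 bp. The authors mapped reads to GRCh38 with HISAT2 2.2.1 and counted reads over Ensembl genes with HTSeq 0.13.5 (tools from the submitters' processing notes and the study's methods), and deposited raw counts for each sample, 64571681 to 103518036 in total. Of 60664 identifiers, 60463 were matched to a symbol. Groups and replicate numbers came from the sample labels.

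Counts were scaled by TMM, filtered with filterByExpr and tested with edgeR 4.0.16's quasi-likelihood test in R 4.3.3, with 1 coefficient per group over all 9 samples (common biological coefficient of variation 0.0633) and Benjamini-Hochberg adjustment over the 18264 genes tested. All fold changes are on the log2 scale, first group minus second. RPKM used the union of exons in GENCODE. An exact two-sided permutation test of 3 against 3 samples cannot go below 0.10, so none is used for calls. The script was tested on simulated data.

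The 10 members and the lists were chosen with earlier results of these data known. All members were described, and for each list the 4 genes with the smallest adjusted p per comparison were named. The test of the difference between steps was added after seeing the data. Alternatives were DESeq2 1.42.0, upper quartile scaling, no filter, at least 10 counts in every sample, the 6 samples of a comparison alone, a replicate block and leaving out each sample. The study's methods describe a PCR step and no molecular identifiers, so reads copied in PCR could not be told from reads of separate molecules.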

Additional observations from a re-analysis of the deposited data

How the results depend on the processing

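No member changed direction in the 3 comparisons under any alternative run, and 10 of 10 stayed lower in shTRPV4 8 cP than in SC 0.77 cP throughout. Leaving out 1 sample at a time gave 1409 to 4349 genes called in SC 8 cP against SC 0.77 cP (3518 with all samples), lowest without SC 0.77 cP replicate 1 and 1418 without SC 8 cP replicate 3. It gave 2179 to 3836 genes in shTRPV4 8 cP against SC 8 cP (3649 with all), lowest without SC 8 cP replicate 2. The members called numbered 4 to 8 in the first comparison and 7 to 8 in the second. The HIF machinery called ran from 0 to 2, from 0 to 2, and from 1 to 3 in the 3 comparisons, the other hypoxia targets from 10 to 23 and the glycolytic targets from 4 to 12 in the first. In the second comparison, 1 gene of the HIF machinery was called under upper quartile scaling, in the fit of 6 samples and with a replicate block. The cause was not tested.

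The labels do not say what the replicate numbers stand for. Over all genes tested, deviations of same-numbered samples correlated between -0.0532 and 0.0882, and those of other numbers between -0.106 and 0.115. Such weak values do not set same-numbered samples apart, and they cannot decide whether the samples were paired. With the replicate number as a block, 3475, 3607 and 7731 genes and 8, 8 and 10 members were called, the added member being *VEGFA* in the first comparison (adjusted p = 0.0396).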
